A study of Mus musculus with 43 samples.

Results

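The comparison described here is between the livers of female mice labelled Irs1-/- (KO) and Irs1+/+ (WT) that were both kept on dietary restriction (DR), named KODR and WTDR. Gene expression was measured by sequencing of polyA-selected RNA, with 3 libraries in each of these groups. All mice were 15 months of age and had received 30% less food than ad libitum (AL) fed controls for 12 months, given once a day in the late afternoon. Livers from AL fed KO mice (KOAL, 3 libraries) and AL fed WT mice (WTAL, 2 libraries) are shown beside them, and the 4 groups make up 11 of the 43 libraries of the series. The labels describe a global KO, so a value in liver cannot be assigned to loss of IRS1 within the liver itself. The deposited table holds 1 pooled FPKM (fragments corrected for transcript length and sequencing depth) for each gene and group with its 95% interval, and no value per library was used here. Of the 42349 entries in the table, 13785 had a valid value and an FPKM of at least 1 in KODR or WTDR liver. Of these, 13555 had a value above 0 in both groups and were tested. The other 230 were listed at 0 in 1 group, 121 of them in KODR and 109 in WTDR, and 168 of the 230 were short RNAs.

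IRS1 is an adaptor that links the activated insulin and IGF-1 receptors to PI3 kinase and AKT. In liver, insulin acting through this route lowers glucose output and the expression of Igfbp1, and raises lipid synthesis. Restricted animals that eat a single daily meal alternate between a short fed phase and a long fast, and the liver clock follows the time of feeding. The hour at which the livers were collected is not given in the sources used here.

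The targeted gene was examined first. Irs1 lies on chromosome 1 (GRCm38 chr1:82233101-82291416, minus strand), and its whole coding sequence is in exon 1. Its FPKM was 4.75 (95% interval 2.57 to 6.94) in the group labelled KODR and 3.29 (1.57 to 5.02) in WTDR. The value in the group labelled KOAL was 5.95 and that in WTAL was 4.70. The difference under DR was 0.53 on the log2 scale (SE 0.50, unadjusted p = 0.293 by a two-sided Wald test). The level of Irs1 RNA therefore went against the label in liver, where the groups labelled KO did not lie below the WT groups. A pooled gene value does not show which part of the gene the reads came from, so an RNA left after the deletion cannot be told apart from an intact one. All directions below are those of the labelled groups.

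Few genes differed between the genotypes under restriction. A total of 39 entries passed the false discovery rate (FDR) of 10%, which is 0.288% of those tested. The test was a two-sided Wald test of the log2 ratio with Benjamini-Hochberg adjustment over all 13555 entries. Of the 39, 25 were higher in the group labelled KODR (0.184% of those tested) and 14 were lower (0.103%). At an unadjusted p under 0.05 there were 241 entries (1.78%), 163 higher and 78 lower. Differences of the size seen for most genes could not be called, because the SE of the log2 difference had a median of 0.69 and 1 entry in 20 had an SE above 2.66. Dividing each SD by the square root of the number of libraries, which reads the interval as the spread between libraries and not as the error of their mean, gave 358 calls (2.64%), 247 higher and 111 lower. Over all tested entries the median log2 difference was 0.09, and 57.4% of entries lay above 0. A gene with a difference close to 0 therefore changes sign when values are centred on this median.

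The 39 entries were mostly not messenger RNAs. Protein-coding entries accounted for 10 of the 10738 tested, 6 higher and 4 lower. Short RNAs (small nuclear, small nucleolar, ribosomal, transfer and micro RNAs) accounted for 20 of 173. Another 4 were pseudogenes, 3 were other non-coding entries and 2 were not matched to the annotation. Many of the calls rest on very narrow intervals. An SD under 10% of the FPKM in KODR or WTDR was found in 18 of the 39 called entries but in 73 of the 13555 tested. With these narrow entries left out, 16 entries passed.

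**Figure D1:**
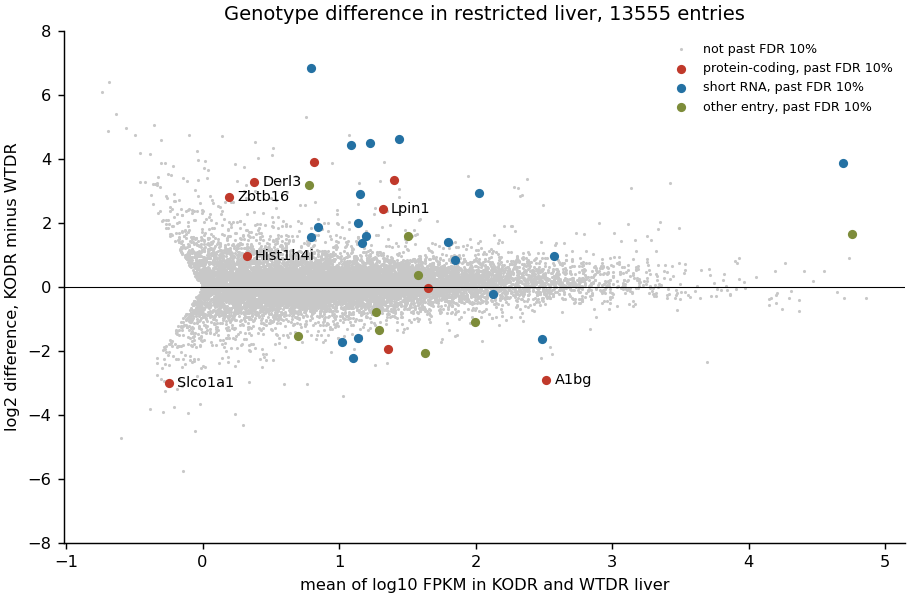
Each point is 1 of the 13555 tested entries, with the mean of the log10 FPKM of KODR and WTDR liver on the x axis and the log2 difference KODR minus WTDR on the y axis. Red, blue and green points are the protein-coding entries, short RNAs and other entries past the FDR of 10%, and grey points did not pass it. Lpin1 (2.45), Zbtb16 (2.83) and Derl3 (3.29) lie above the grey cloud and A1bg (-2.90) and Slco1a1 (-3.01) below it, while Hist1h4i (0.97) lies inside it.

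Lpin1 had the smallest p of the single-gene protein-coding entries apart from Hist1h4i and Gm20721. It encodes lipin 1, the phosphatidate phosphatase of triglyceride synthesis, which is also a coactivator of fatty acid oxidation genes and is induced in fasting. The gene lies at GRCm38 chr12:16535669-16610966, minus strand. Its FPKM was 48.9 (22.1 to 75.6) in KODR and 8.94 (5.62 to 12.3) in WTDR, and these intervals did not overlap. In the AL fed groups it was 41.9 (22.5 to 61.3) in KOAL and 29.6 (5.45 to 53.8) in WTAL. The value in WTDR was the lowest of the 4, within the wide interval of WTAL. Under DR the log2 difference was 2.45 (SE 0.48, adjusted p = 0.000175, Wald test with Benjamini-Hochberg adjustment). The same difference under AL was 0.50 (SE 0.68). The difference between the diets was 1.95 (SE 0.83, unadjusted p = 0.0184) and did not pass the FDR.

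Zbtb16 also had its lowest value in WTDR. It encodes PLZF, a zinc finger transcriptional repressor that responds to glucocorticoids, and lies at GRCm38 chr9:48654297-48836222, minus strand. WTDR had an FPKM of 0.591 (0.266 to 0.916), and the other groups had 4.20 (1.38 to 7.02) in KODR, 5.15 (2.80 to 7.50) in KOAL and 5.51 (1.40 to 9.62) in WTAL. Of the restricted groups only KODR reached an FPKM of 1, so Zbtb16 was tested only through the group where it is higher. The log2 difference under DR was 2.83 (SE 0.63, adjusted p = 0.0036, Wald test with Benjamini-Hochberg adjustment), beside -0.10 (SE 0.63) under AL. The interaction of genotype and diet was 2.93 (SE 0.89, unadjusted p = 0.000992, adjusted p = 0.558, Wald test with Benjamini-Hochberg adjustment).

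Derl3 had the greatest positive difference of the called protein-coding entries that hold a single gene. Its product, derlin 3, takes part in moving misfolded proteins out of the endoplasmic reticulum (ER), and the gene lies at GRCm38 chr10:75893413-75895941, plus strand. The KODR value was 7.50 (1.99 to 13.0) against 0.767 (0.0214 to 1.51) in WTDR. Both AL fed groups were close to WTDR, at 0.424 in KOAL and 0.461 in WTAL, so here KODR stood apart. Derl3 was tested only because KODR, where it is higher, reached an FPKM of 1. The log2 difference was 3.29 (SE 0.88, adjusted p = 0.0689, Wald test with Benjamini-Hochberg adjustment).

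A1bg and Slco1a1 fell. A1bg encodes the plasma glycoprotein alpha-1-B glycoprotein, expressed in female more than male mouse liver, and lies at GRCm38 chr15:60896859-60923012, minus strand. Its FPKM was 121 (45.6 to 196) in KODR, 900.4 (278 to 1522) in WTDR, 407 (144 to 670) in KOAL and 1607 (76.3 to 3137) in WTAL. Both KO groups lay below both WT groups. The log2 difference was -2.90 under DR (SE 0.67, adjusted p = 0.0080, Wald test with Benjamini-Hochberg adjustment) and -1.98 under AL (SE 0.83, unadjusted p = 0.017), and the differences under the 2 diets differed by -0.91 (SE 1.07, unadjusted p = 0.392). Slco1a1 encodes an organic anion transporter of the hepatocyte membrane that is expressed mainly in male liver, and lies at GRCm38 chr6:141907282-141946962, minus strand. It was low in all groups, at 0.200 (0.0454 to 0.354) in KODR, 1.60 (0.361 to 2.85) in WTDR, 0.243 in KOAL and 0.157 in WTAL. Its log2 difference under DR was -3.01 (SE 0.79, adjusted p = 0.0554, Wald test with Benjamini-Hochberg adjustment). The WTDR group was the high one of the 4. Slco1a1 was tested only because WTDR reached an FPKM of 1.

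The remaining protein-coding entries call for more care. Hist1h4i, a histone H4 gene with near-identical copies elsewhere in the genome, had 2.94 (2.92 to 2.96) in KODR and 1.51 (1.48 to 1.53) in WTDR, a log2 difference of 0.97 with an SE of 0.014. Gm20721 passed with 44.6 against 45.8 and a log2 difference of -0.04 (SE 0.0055), which is smaller than the median shift of all entries. In 3 entries a short microRNA precursor is joined with the protein-coding gene around it under 1 value. These were Hipk3 with Mir1902 (11.7 in KODR, 44.3 in WTDR, log2 difference -1.93, SE 0.46), Epc1 with Mir1893 (80.9 and 8.0, log2 difference 3.34, SE 0.79) and Wdfy2 with Mir8098 (25.4 and 1.67, log2 difference 3.92, SE 0.89). Which of the joined genes the reads came from cannot be told apart in such an entry.

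**Figure D2:**
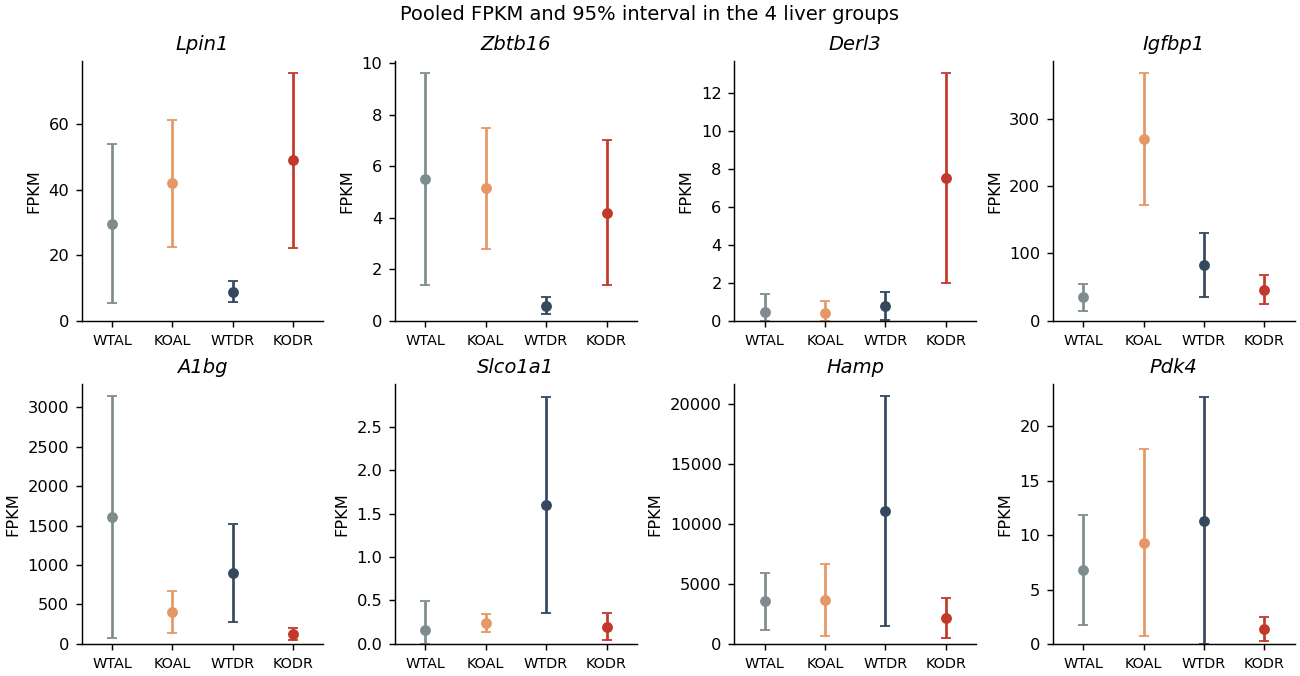
Pooled FPKM (points) and 95% interval (bars) of 8 genes in WTAL, KOAL, WTDR and KODR liver, each on its own linear axis from 0. Lpin1 and Zbtb16 are lowest in WTDR, Derl3 is highest in KODR, Igfbp1 is highest in KOAL at 270, A1bg is lower in both KO groups, and Slco1a1, Hamp and Pdk4 are highest in WTDR.

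The call of these genes depended on the reference distribution. With a t distribution of 4 degrees of freedom in place of the normal, 4 entries passed, namely Hist1h4i, mt-Td, Gm23935 and Gm27463, and Lpin1, Zbtb16, A1bg, Slco1a1 and Derl3 did not. Slco1a1 and Derl3 also missed the FDR when only protein-coding entries were tested (adjusted p = 0.166 and 0.197, Wald test with Benjamini-Hochberg adjustment) or when narrow intervals were left out (adjusted p = 0.110 and 0.137).

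The 20 short RNAs have annotated spans of 57 to 191 bp. They comprise 8 small nuclear, 3 small nucleolar, 3 ribosomal and 3 micro RNAs, 2 mitochondrial transfer RNAs and the Y RNA Rny1. Rnu11, the U11 RNA of the minor spliceosome, had 137 (0 to 297) in KODR and 5.52 (3.83 to 7.21) in WTDR, a log2 difference of 4.63 (SE 0.87). The mitochondrial aspartate tRNA mt-Td had 293 (280 to 307) and 38.2 (34.9 to 41.5), a log2 difference of 2.94 (SE 0.07). Gm25313 had 81.0 in KODR and 3.56 in WTDR (log2 difference 4.51, SE 0.42), beside 258 in KOAL and 124 in WTAL. Lower values were found for Gm22579, a small nucleolar RNA, with 5.84 against 27.2 (log2 difference -2.22, SE 0.26), and for Gm23935 with 176 against 543 (-1.63, SE 0.05). Of the 20, 11 were listed at 0 in KOAL or WTAL liver, and mt-Td, Gm22579 and Gm23935 were among the 8 listed at 0 in WTAL. Most of these RNAs carry no polyA tail, and reads below a length limit were removed before alignment, so their recovery in polyA-selected libraries need not follow their amount in the cell.

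Among the other non-coding entries, Dancr, a host gene of small nucleolar RNAs, had 12.3 (7.48 to 17.1) in KODR and 31.3 (21.0 to 41.7) in WTDR. The log2 difference was -1.35 (SE 0.37, adjusted p = 0.0916, Wald test with Benjamini-Hochberg adjustment), and under AL it was 1.85 (SE 0.87). The long non-coding RNA 1300002E11Rik had 2.95 (2.10 to 3.79) in KODR and 8.45 (7.10 to 9.80) in WTDR, a log2 difference of -1.52 (SE 0.24). Of the 4 pseudogenes, 3 were lower, among them Gm14039 with 20.7 against 86.4 (log2 difference -2.06, SE 0.17) and, under AL, 12.0 against 33.7 (-1.49, SE 0.21). The unmatched entry Yam1 was abundant, with 102238 in KODR and 32436 in WTDR (1.66, SE 0.27). The annotated span of Gm14039 is 101 bp, and reads of the pseudogenes and of Yam1 may belong to other copies.

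Genes of the insulin and IGF pathway were examined as a list of 35, of which 33 were tested. None passed the FDR, 22 lay above 0 and the median log2 difference was 0.24, beside 0.09 over all entries. Irs2, the other main IRS of liver, had 7.99 (4.18 to 11.8) in KODR and 9.06 (5.18 to 12.9) in WTDR. Foxo1, the transcription factor that AKT keeps out of the nucleus, had 7.88 and 5.07, a log2 difference of 0.64 (SE 0.48). Trib3, an inhibitor of AKT and a target of ATF4, was the only member of the list with an unadjusted p under 0.05, with 20.3 (10.5 to 30.0) against 10.1 (4.95 to 15.3), a log2 difference of 1.00 (SE 0.51, unadjusted p = 0.048). In the growth hormone axis none of 14 tested genes passed, and the median was -0.12. Igf1, the circulating growth factor made by liver, had 519 (91.8 to 946) in KODR and 696 (126 to 1266) in WTDR.

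Of 31 genes of glucose handling, 26 lay above 0 and none passed the FDR. Pck1, the gene of cytosolic PEPCK in gluconeogenesis, had 1895 (387 to 3402) in KODR and 1270 (247 to 2292) in WTDR. G6pc, the last enzyme of glucose release, had 92.5 (45.7 to 139) and 108 (44.1 to 172). The intervals of both genes overlapped widely. Pdk4, which encodes the kinase that shuts off pyruvate dehydrogenase in fasting, had the largest difference of the list at 1.39 (0.276 to 2.49) in KODR and 11.3 (0 to 22.7) in WTDR (log2 difference -3.03, SE 0.93, unadjusted p = 0.0011, adjusted p = 0.288, Wald test with Benjamini-Hochberg adjustment). Its values in KOAL and WTAL were 9.30 and 6.78, so KODR was the low group. Sik1, a kinase induced through cAMP, had 7.59 and 3.89, a log2 difference of 0.96 (SE 0.41, unadjusted p = 0.018).

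Among 28 tested genes of fatty acid and triglyceride synthesis, Lpin1 was the single member past the FDR, 20 lay above 0 and the median was 0.43. Scd1, the stearoyl-CoA desaturase that makes monounsaturated fatty acids, pointed the other way with 175 in KODR and 749 in WTDR (log2 difference -2.10, SE 0.72, unadjusted p = 0.00377). Fasn, fatty acid synthase, had 179 (0 to 399) and 125 (0 to 321), and Thrsp, a lipogenic protein of liver, had 324 (63.0 to 585) and 189 (9.98 to 369). Of 34 genes of fatty acid oxidation and ketogenesis, targets of the receptor PPARA, 28 lay above 0 and none passed. Fgf21, the fasting hormone of liver, had 18.5 (7.94 to 29.2) in KODR and 34.9 (12.5 to 57.3) in WTDR. No gene passed among 27 of sterol synthesis (median 0.07), and among 26 of bile acid synthesis and transport only Slco1a1 did (median -0.06). Cyp7a1, the rate-limiting enzyme of bile acid synthesis, had 51.1 (0 to 138) and 47.7 (12.8 to 82.6).

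The circadian clock runs as a loop in which ARNTL (BMAL1) and CLOCK bind E-boxes and activate the Per, Cry and Nr1d genes, whose products then repress them. Of 25 clock and clock output genes, 23 were tested, 19 lay above 0 and the median log2 difference was 0.74, beside 57.4% above 0 and 0.09 over all entries. None passed the FDR, and 4 had an unadjusted p under 0.05, beside 1.78% of all entries. In the activating limb, Arntl had 0.251 (0 to 0.628) in KODR and 1.82 (0.583 to 3.06) in WTDR (log2 difference -2.86, SE 1.19, unadjusted p = 0.0164, Wald test). The Arntl intervals overlapped, and of the restricted groups only WTDR reached an FPKM of 1. Clock had 1.90 in KODR and 3.57 in WTDR (-0.91, SE 0.57). In the repressing limb, Per1 had 19.2 and 7.13 (1.43, SE 0.64, unadjusted p = 0.0252) and Ciart, a repressor of the ARNTL-CLOCK dimer, had 23.9 and 5.79 (2.04, SE 0.91, unadjusted p = 0.0243). Per2 had 13.9 and 3.54 with a wide error (1.97, SE 2.61). Among the output genes Nfil3, a repressor at D-boxes, had 10.7 and 26.2 (-1.29, SE 0.55, unadjusted p = 0.0194), and Dbp, the D-box activator that opposes it, had 263 and 147 (0.84, SE 1.17). Nr1d1, the gene of REV-ERB alpha, had 123 and 108. Under AL feeding 8 of 21 tested members lay above 0, with a median of -0.26. The interaction with diet was -2.14 for Nfil3 (SE 0.74, unadjusted p = 0.00375). For Per3 it was 3.28 (SE 1.21, unadjusted p = 0.00663), from a log2 difference of 0.95 under DR and -2.33 under AL. Neither passed the FDR. Clock genes swing through the day, so with group means of 3 livers a difference in hour of collection or time since the meal cannot be told apart from one of genotype.

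The promoters of Ciart and Per1, members of the repressing limb with an unadjusted p under 0.05, are shown for their E-boxes. The sequences are bases -180 to -31 from the RefSeq start in GRCm38.p6, 5′ to 3′ on the strand of the gene, with CACGTG in capitals (its reverse complement is the same, so both strands are covered).
Ciart, chr3:95882259-95882408, minus strand: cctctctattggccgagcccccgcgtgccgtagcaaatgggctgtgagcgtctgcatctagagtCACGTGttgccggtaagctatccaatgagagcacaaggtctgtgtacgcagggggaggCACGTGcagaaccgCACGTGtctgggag
Per1, chr11:69098769-69098918, plus strand: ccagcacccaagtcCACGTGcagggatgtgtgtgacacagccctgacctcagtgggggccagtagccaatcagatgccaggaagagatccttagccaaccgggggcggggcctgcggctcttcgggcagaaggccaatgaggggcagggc
The matches begin 116, 58 and 44 bases before the start in Ciart and 166 bases before it in Per1, where the upstream of its listed starts was used. The Per1 sequence shown lies inside the GENCODE span of the gene, chr11:69095217-69109960, and so is not upstream of the whole gene. In the windows from 250 bases before to 50 bases after each start, an E-box was found in 7 of the 28 windows of the clock list (25%), in 9.91% of the windows of genes with a tested entry and in 7.15% of all 32851 windows. Called protein-coding genes had a window in 6 cases, and those of A1bg and Derl3 held an E-box. The D-box TTATGTAA, the FOXO motif GTAAACA and the cAMP element TGACGTCA, each searched on both strands, were each found in 3.57% of the clock list windows and in none of the 6 of called genes. In windows of genes with a tested entry the shares were 0.59%, 3.05% and 2.84%, and in all windows 0.938%, 3.65% and 1.79%.

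**Figure D3:**
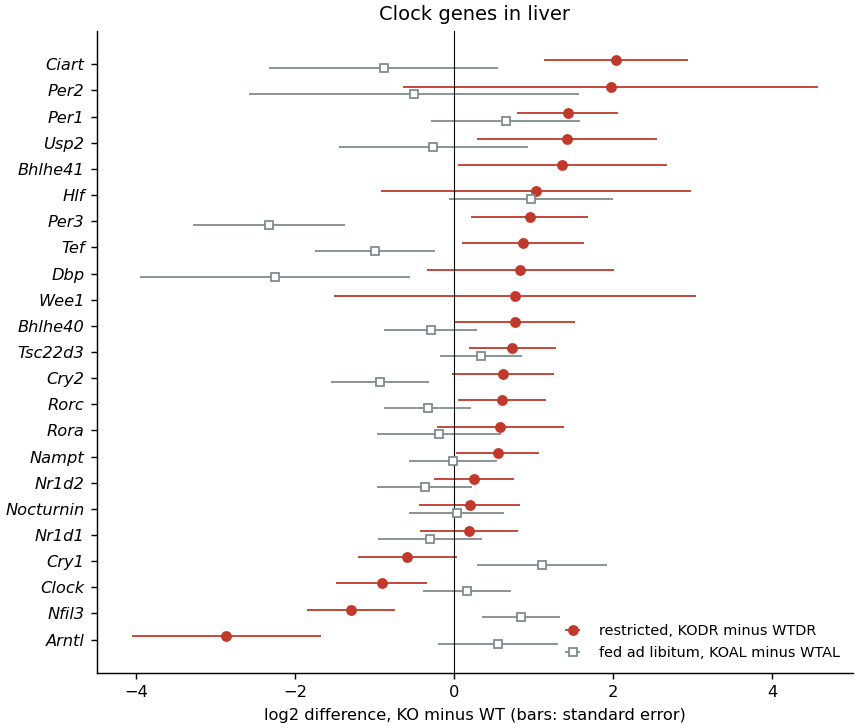
Log2 difference KO minus WT of the 23 tested clock genes in liver, with bars of 1 standard error. Red circles are the restricted groups and open grey squares the AL fed groups. In the restricted groups 19 genes lie right of 0, and Arntl (-2.86) and Nfil3 (-1.29) lie farthest left, while in the AL fed groups 8 of 21 lie right of 0.

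Hepcidin, the liver hormone that lowers iron export into plasma, is encoded by Hamp. This gene had an FPKM of 2204 (533 to 3874) in KODR and 11090 (1509 to 20672) in WTDR, beside 3658 in KOAL and 3556 in WTAL. WTDR was thus the high group. The log2 difference was -2.33 (SE 0.83, unadjusted p = 0.00493, adjusted p = 0.802, Wald test with Benjamini-Hochberg adjustment). Its neighbour Hamp2 had 181 and 671 (log2 difference -1.89, SE 0.54, unadjusted p = 0.00048, adjusted p = 0.148, Wald test with Benjamini-Hochberg adjustment), and it passed when differences were centred on the median of all entries or when an FPKM of 1 was added. These close paralogs may share reads. No other gene among 19 of iron and haem had an unadjusted p under 0.05. The regulators of hepcidin Bmp6 and Tfr2 had log2 differences of 0.29 and 0.19. Id1, Hfe, Hfe2 and Smad7 of the same list had 0.53, 0.06, 0.35 and -0.67 (SE 1.11 for Smad7).

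The acute phase list has 30 tested genes, Hamp and Hamp2 included. Of the other 28, 18 lay above 0, 2 were higher and 1 lower at an unadjusted p under 0.05, and none passed the FDR. The metallothioneins Mt1 and Mt2, which bind zinc and are induced by glucocorticoids, had 1103 against 347 (log2 difference 1.67, SE 0.56, unadjusted p = 0.00306) and 604 against 242 (1.32, SE 0.57, unadjusted p = 0.0200). Under AL the log2 differences of Mt1 and Mt2 were 1.29 (SE 0.56) and 0.25 (SE 0.61). In the whole list 29 of 30 genes lay above 0 under AL, beside 61.4% of all entries tested under AL. Serum amyloid Saa2 had 20.3 against 49.6 (-1.29, SE 0.55, unadjusted p = 0.0200). Haptoglobin (Hp) and lipocalin 2 (Lcn2) had log2 differences of 0.75 (SE 0.67) and 0.83 (SE 0.59).

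ER stress and ATF4 genes lay on both sides of 0 (15 of 26 above, median 0.11). Derl3 was the member past the FDR. Sdf2l1, an ER chaperone partner induced with it in the unfolded protein response, had 23.6 (10.2 to 37.0) in KODR and 7.91 (3.22 to 12.6) in WTDR, a log2 difference of 1.58 (SE 0.59, unadjusted p = 0.00757). The central chaperone Hspa5 (BiP) had 208 (69.4 to 348) and 174 (24.5 to 323), and Ddit3 (CHOP) had 7.41 (0 to 22.9) and 20.6 (0 to 45.9). Among 21 heat shock genes 17 lay above 0, and Hspb1 and Chordc1 had unadjusted p values of 0.0187 and 0.0175. Their log2 differences were 1.26 (SE 0.53) and 1.07 (SE 0.45) under DR, and 1.21 (SE 0.59) and 0.55 (SE 0.59) under AL.

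Sex-biased liver genes, many of which are set by the pattern of growth hormone release, had a median of -0.33, and 19 of 30 lay below 0. A1bg, the more abundant in females, and Slco1a1, the more abundant in males, both passed the FDR and both fell, so the list holds calls from both sexes' programmes in the same direction. Sult1e1, an oestrogen sulfotransferase, had 3.02 (0.524 to 5.52) in KODR and 0.424 (0 to 0.962) in WTDR (log2 difference 2.83, SE 1.09, unadjusted p = 0.00956). It was tested only because KODR reached an FPKM of 1. The major urinary proteins (MUPs), pheromone carriers secreted by liver, lay below 0 in all 21 tested entries, with a median of -0.44 and a range of -1.34 to -0.23, and none passed. MUP genes are near-identical and their reads can be split among copies, so the 21 values are not independent. Under AL 14 of the 21 lay above 0. The most divergent, Mup21, had 40.0 (19.3 to 60.7) in KODR and 101 (51.4 to 151) in WTDR (-1.34, SE 0.51, unadjusted p = 0.00924).

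Cell type markers were compared between the groups as summed FPKM. Those of hepatocytes summed to 112478 in KODR and 116731 in WTDR, and 7 of 15 lay above 0 with a median of -0.04. Alb, the gene of albumin, had 44350 in KODR and 56555 in WTDR. Under AL all 15 lay above 0 with a median of 0.79, where 61.4% of all tested entries lay above 0 with a median of 0.16. Of 8 red blood cell markers, 5 were tested and all lay above 0, with a median of 1.69. They summed to 12048 in KODR and 3469 in WTDR, and to 13570 in KOAL and 2681 in WTAL, so both KO groups held more. Hbb-bt had 979 (415 to 1543) in KODR and 303 (109 to 497) in WTDR (log2 difference 1.69, SE 0.62, unadjusted p = 0.0064), and Hba-a2 had 4497 and 1106 (2.02, SE 0.83, unadjusted p = 0.0147). The globin copies are near-identical and may share reads. Skeletal muscle markers summed to 30.8 in KODR, 12.7 in WTDR, 90.2 in KOAL and 2.56 in WTAL. Of 12 Kupffer cell and macrophage markers, 8 lay above 0 (median 0.10), and all 8 of sinusoidal endothelium did (median 0.51). Of 9 adipocyte markers 5 were tested, with a median of 0.55. Fabp4, a fatty acid binding protein, had 10.5 (4.28 to 16.8) in KODR and 2.63 (0.66 to 4.6) in WTDR (log2 difference 2.00, SE 0.69, unadjusted p = 0.00365, Wald test). Its log2 difference under AL was 1.93 (SE 1.54). The adipocyte list summed to 907 in KODR and 1338 in WTDR, but Car3 alone held 887 and 1329 of these, so the sums follow that gene. Both tested neutrophil markers lay above 0, S100a8 at 1.74 (SE 0.94) and S100a9 at 0.95 (SE 0.64), and the list summed to 34.1 and 14.6. Kidney and adrenal markers summed to 0.604 and 1.11. In such bulk samples fewer cells of a type and less RNA per cell cannot be told apart. The part of red blood cells, muscle, fat or neutrophils in the differences above was not tested.

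**Figure D4:**
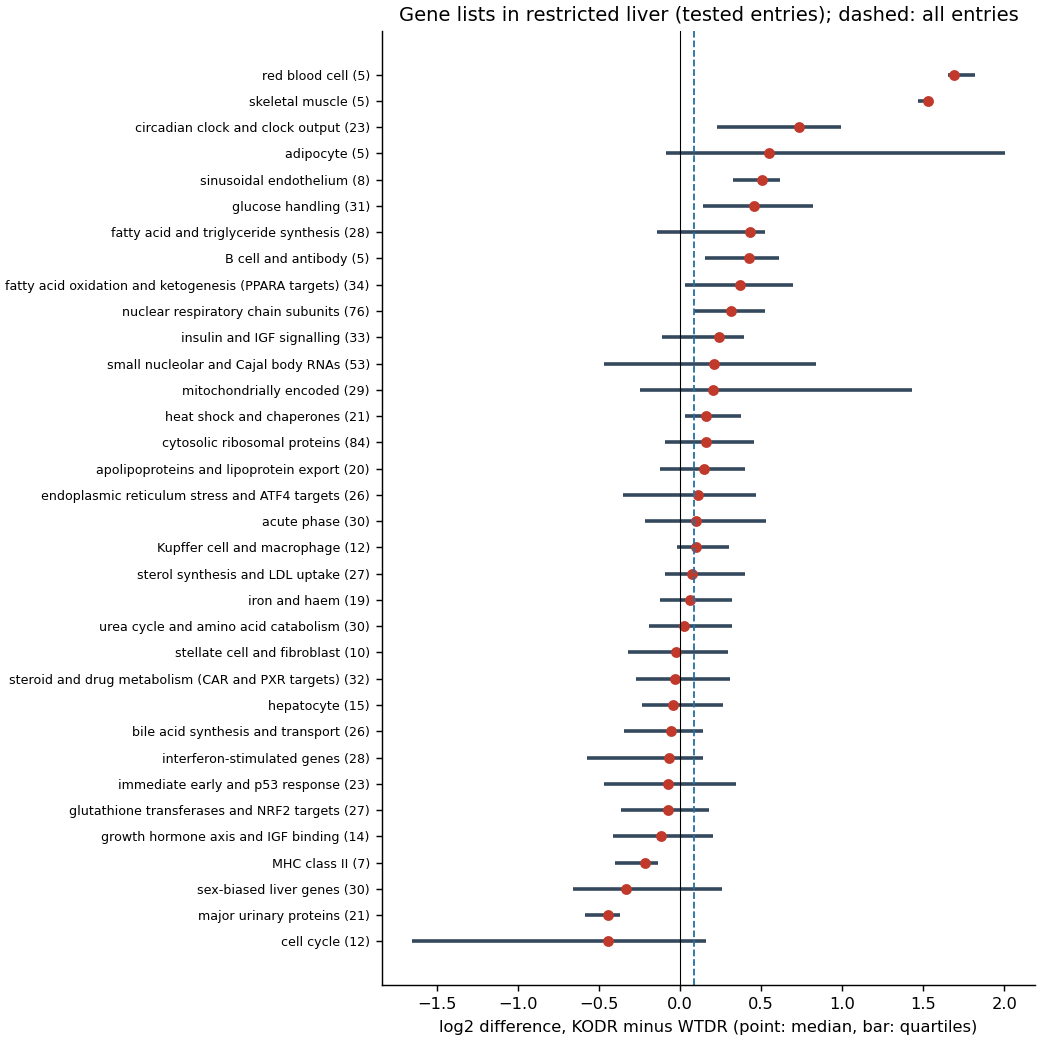
Median (points) and quartiles (bars) of the log2 difference KODR minus WTDR for each gene list with enough tested members, with the number tested beside its name. The dashed line marks the median of all tested entries, 0.09. The red blood cell list (1.69), skeletal muscle list (1.53) and clock list (0.74) lie farthest to the right, and the MUPs (-0.44) and cell cycle genes (-0.45) farthest to the left. The skeletal muscle point rests on 5 tested markers with SEs of 0.97 to 26.9. Of these, Ckm, Tnnt3 and Tnni2 were tested only because KODR, where they are higher, reached an FPKM of 1.

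Several large groups showed no called gene, where 10 of all 10738 protein-coding entries (0.0931%) were called. At that share lists of this size, like the shorter ones above, would hold few or no calls. The groups without a call were 84 cytosolic ribosomal proteins (58 above 0, median 0.16), 76 nuclear subunits of the respiratory chain (64 above 0, median 0.31), 30 urea cycle and amino acid genes (16 above 0), 27 glutathione transferases and NRF2 targets (12 above 0), 32 genes of steroid and drug metabolism (15 above 0), 28 interferon-stimulated genes (11 above 0) and 20 apolipoprotein and lipoprotein export genes (11 above 0). Of 26 cell cycle genes only 12 reached the limit for testing, with a median of -0.45 and wide errors. Under AL feeding all 84 ribosomal protein genes lay above 0, with a median of 0.86, beside 61.4% above 0 and a median of 0.16 over all entries tested under AL.

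Whether the genotype difference under DR was the same as under AL was tested as an interaction over the 4 liver groups. It passed for 12 of 13956 entries (0.086%), 7 higher and 5 lower, and 147 had an unadjusted p under 0.05. Only 3 of the 12 were protein-coding entries, and Igfbp1 was the only protein-coding gene with a value of its own. Igfbp1, which binds IGF-1 and is repressed by insulin, lies at GRCm38 chr11:7197782-7202546, plus strand. Its FPKM was 46.5 (24.7 to 68.2) in KODR, 82.5 (34.9 to 130) in WTDR, 270 (173 to 368) in KOAL and 34.9 (15.0 to 54.8) in WTAL. The interval of KOAL lay above those of the other 3 groups, which overlapped one another. The log2 difference between the genotypes was -0.83 under DR (SE 0.54, unadjusted p = 0.122) and 2.95 under AL (SE 0.49, adjusted p = 9.66e-07, Wald test with Benjamini-Hochberg adjustment). The interaction was -3.78 (SE 0.72, adjusted p = 0.000313, Wald test with Benjamini-Hochberg adjustment). Fgf21 and Egr1, an immediate early gene, had interactions of -2.47 (SE 0.85, unadjusted p = 0.00376) and -3.08 (SE 0.89, unadjusted p = 0.000509), which did not pass.

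In the AL fed liver 43 of 13614 entries passed the test of genotype (0.316%). The AL and DR comparisons share no library. Of the 241 entries with an unadjusted p under 0.05 under DR, 207 were also tested under AL, and 129 of them (62.3%) had the same sign there, beside 56.4% of all 12913 entries tested under both diets. Across these 12913 entries the log2 differences under the 2 diets had a Pearson r of 0.130 and a Spearman rho of 0.135, as a description over genes, which are not independent replicates.

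The same genotype comparison under DR was made in the other tissues to see which differences were larger in liver. In skeletal muscle 313 of 14021 entries passed (2.23%), 124 higher and 189 lower. Hepatocyte markers in the muscle libraries summed to 221 in KODR, 2455 in WTDR, 130 in KOAL and 47.3 in WTAL, so they were high in WTDR muscle. Of the 15 markers, 14 lay below 0 in muscle with a median of -4.46, 11 passed as lower there, and 3 passed in the contrast of liver with muscle. Brain had 177 of 15262 (1.16%), and white adipose tissue (WAT) had 42 of 14820 (0.283%). The difference in liver departed from that in muscle for 66 of 12033 entries (0.548%), from that in brain for 9 of 11538 (0.078%) and from that in WAT for 6 of 12337 (0.0486%). Lpin1 had a log2 difference of 0.84 in muscle, where it passed the FDR, 1.14 in brain and 0.04 in WAT. The liver difference exceeded these by 1.61 (SE 0.50, adjusted p = 0.168), 1.31 (SE 0.61) and 2.41 (SE 0.97), and none of these excesses passed (Wald test with Benjamini-Hochberg adjustment). For Zbtb16 the differences were 0.52 in muscle, 1.25 in brain and -0.34 in WAT, and the excess of liver over muscle was 2.31 (SE 0.73, adjusted p = 0.203, Wald test with Benjamini-Hochberg adjustment). A1bg also passed in muscle, with 0.0490 in KODR and 10.8 in WTDR and a log2 difference of -7.78 (adjusted p = 0.00448, Wald test with Benjamini-Hochberg adjustment). It moved there with the hepatocyte markers, whose part in it was not tested. The difference between liver and another tissue did not pass the FDR for Lpin1, Zbtb16 or A1bg, and tissues may come from the same mice.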

How the data were processed

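Libraries from polyA-selected RNA were sequenced on an Ion Proton System. Per the labels and the submitters' processing notes, the authors trimmed reads with cutadapt 1.5, aligned them to GRCm38 and ran Cuffdiff 2.2.1, with correction for reads that map to several places, geometric normalisation and a dispersion estimated for each condition. The authors deposited 1 table of FPKM values, each with a status and a 95% confidence interval, for 16 groups. It has 42349 entries, 873 of which join several genes. All its columns were matched to groups. Values are pooled over 2 or 3 libraries, so library depth is unknown, no spread between mice was computed, and no limma fit or permutation test was possible. The labels do not say that same-numbered libraries are related. P values measure only the spread that the authors' intervals carry, and intervals and tests share that source.

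Entries with status OK and an FPKM of at least 1 in KODR or WTDR liver were taken, and tested if above 0 in both. The difference was the log2 ratio of the FPKM values with no pseudocount. The SD was taken as the distance from the FPKM to its upper bound over 2. A two-sided Wald test used a delta-method SE, a normal reference and Benjamini-Hochberg adjustment over all tested entries, with an FDR of 10%. The interaction and the tissue contrasts were tested alike. The test was tried on simulated data.

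Named genes were Irs1, called entries (up to 20 per direction by size, and up to 5 per direction below an FPKM of 1 in a group), entries with the smallest p where fewer than 10 were called, members of the gene lists, and the called interactions. Members and lists were chosen with earlier results of these data known. Results for some genes are left out. Positions are from GENCODE M21 and promoters from RefSeq. The alternatives were a 5% FDR, calls by non-overlapping intervals, a t distribution with 4 degrees of freedom, pseudocounts of 0.1 and 1, no minimum FPKM or 5, a 2-fold minimum, centring, leaving out joined entries, and an SD divided by the square root of the number of libraries. Testing protein-coding entries alone and leaving out entries with an SD under 10% of the FPKM were added after the data were seen. Python 3.11.15, numpy 2.4.6, pandas 2.3.3, scipy 1.17.1 and matplotlib 3.10.9 were used.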

Additional observations from a re-analysis of the deposited data

Results flagged for a closer look

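The genotype difference under DR differed from that under AL, by the Wald test of the interaction at an FDR of 10%, for 12 entries. Igfbp1 (-3.78 on the log2 scale) was the only protein-coding gene with a value of its own. Its value rests on a high KOAL group, at 270 against 34.9 to 82.5 in the other liver groups. The entry that joins Mir8098 with Wdfy2 (6.04) had 25.4 in KODR, 1.67 in WTDR, 12.0 in KOAL and 51.9 in WTAL, so the order of the genotypes was opposite under the 2 diets. The entry that joins Gm24067, a small nucleolar RNA, with Ppan had an interaction of 2.19, with WTAL the high group at 372. The pseudogene Mup-ps5 had an interaction of 2.50.

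The other 8 were short RNAs. The interactions were 7.74 for Gm25360, 3.45 for Gm25313, 2.80 for Gm22235 and 2.61 for Gm25541, all small nuclear RNAs. They were -5.41 for n-R5s193 and -1.45 for n-R5s194, both 5S ribosomal RNA copies, -4.19 for Snord82 and -1.69 for the mitochondrial histidine tRNA mt-Th. For n-R5s193 the KOAL value of 240 stood against 7.99 to 24.1 in the other groups, and for Snord82 the KOAL value of 1312 stood against 81.4 to 372. Gm25360, with the largest interaction, had 66.9 (0 to 155) in KODR and 0.579 (0 to 1.71) in WTDR. Both intervals reach 0, and the SE of its interaction was 1.87.

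For the genes named in the text, the difference under DR in liver was also tested against that in each other tissue. Nfil3 in liver departed from muscle by -2.72 (adjusted p = 0.0902, Wald test with Benjamini-Hochberg adjustment). Tfr2 in liver exceeded muscle by 4.11, where hepatocyte markers were high in WTDR muscle. The long non-coding RNA 1300002E11Rik departed by -1.33 from muscle and by -1.92 from WAT, and the pseudogene Gm14039 by -4.23 from muscle. Among short RNAs, mt-Td departed by 4.20 from muscle and by 4.20 from brain, mt-Th by -1.06 and 1.17, Gm25541 by 2.96 from muscle and Snord82 by -2.62 from brain. An entry not matched to the annotation departed by 1.71 from WAT. The difference under DR for Hist1h4i in liver exceeded that in skeletal muscle by 2.31 and differed from that in brain by -0.22. Gm20721 in liver differed from muscle by 0.0387, from brain by -0.41 and from WAT by -1.19. Both have SE values under 0.04 in these contrasts, taken from intervals far narrower than those of other genes with similar levels, and both were tested between tissues that may come from the same mice.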

How the results depend on the processing

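No paired analysis was possible because the table holds 1 pooled value per group, and for the same reason no library could be left out. Non-overlapping intervals could not be applied to the interaction. The count of 39 became 76 with non-overlapping intervals, 4 with a t distribution of 4 degrees of freedom, 245 and 204 with pseudocounts of 0.1 and 1, 358 with the SD divided by the square root of the number of libraries, 8 among protein-coding entries and 16 without narrow intervals. It lay between 32 and 40 under the other alternatives. With a minimum FPKM of 5, Zbtb16, Slco1a1 and Hist1h4i were no longer tested, because neither restricted group reached it. With the smaller SE every p falls, so all 39 entries were bound to be called again. The clock genes Arntl, Nfil3, Per1 and Ciart were called with it as well. The interaction count of 12 became 1 with the t distribution, 363 and 287 with the pseudocounts, 112 with the smaller SE, 3 among protein-coding entries and 3 without narrow intervals, and lay between 10 and 13 otherwise. With a pseudocount 13785 entries could be tested, those at 0 in 1 group included. An FDR of 5% lost 6 of the 39 entries, Slco1a1, Derl3 and Dancr among them, and a pseudocount of 1 lost Slco1a1. None of the genes named in the text reversed direction under these alternatives.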

Other observations

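Some protein-coding genes outside the lists, chosen after their values were seen, came close to the FDR. Cdc42ep5, an effector of the GTPase CDC42, had 22.3 (6.50 to 38.1) in KODR and 4.25 (1.63 to 6.87) in WTDR, a log2 difference of 2.39 (SE 0.68, adjusted p = 0.137, Wald test with Benjamini-Hochberg adjustment). Cyp2j9, an arachidonic acid epoxygenase, had 4.31 (1.81 to 6.82) and 17.6 (7.70 to 27.5), with 3.84 in KOAL and 4.42 in WTAL, so WTDR was the high group.

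Csad, the enzyme of taurine synthesis, had 61.7 (32.1 to 91.2) in KODR, 201 (76.1 to 326) in WTDR, 179 in KOAL and 213 in WTAL, a log2 difference under DR of -1.70 (SE 0.57, unadjusted p = 0.0026). The tubulin gene Tubb2a had 30.7, 101, 157 and 104 in the same order of groups (-1.72, SE 0.60, unadjusted p = 0.00415). For these genes KODR was the low group. Among the 162 protein-coding entries with an unadjusted p under 0.05, WTDR alone held the highest or lowest of the 4 liver values in 62 (38.3%), KODR alone in 41 (25.3%) and both in 49, beside 39.8%, 33.1% and 10.7% of all 10738 protein-coding entries. The 162 were chosen by the difference between KODR and WTDR, which by itself puts both at the ends more often. The shares are therefore no test of which group moved.

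Genes of the immediate early and p53 response list lay on both sides of 0 under DR (10 of 23 above 0). Egr1 was the only member with an unadjusted p under 0.05 under DR. It had 4.92 (2.09 to 7.76) in KODR and 14.0 (7.01 to 21.0) in WTDR (log2 difference -1.51, SE 0.55, unadjusted p = 0.00614, Wald test). In the interaction 4 of the list had an unadjusted p under 0.05 by the Wald test, all lower, beside 147 of all 13956 entries tested. Gadd45b had 5.49 in KODR, 12.0 in WTDR, 19.8 in KOAL and 3.83 in WTAL, an interaction of -3.50 (SE 1.04, unadjusted p = 0.000762), and Cdkn1a had 3.02, 5.54, 78.3 and 18.3, an interaction of -2.97 (SE 0.96, unadjusted p = 0.00189). Neither passed the FDR.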
